A study of Mus musculus with 6 samples.

Results

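Semaphorins, ephrins and Slits are ligands that steer cells and their processes, and plexins, neuropilins, Eph receptors and Robo receptors bind them. The 58 genes of these families that had a gene ID, of 20300 genes tested, were taken by their symbols. Nrp1 and Sema4a were not among them. They comprised 19 semaphorins, 9 plexins, 1 neuropilin, 8 ephrins, 14 Eph receptors, 3 Slits and 4 Robo receptors, each with 1 probe set. Their RNA was measured on Clariom S Mouse arrays in dendritic epidermal T cells (DETC), the γδ T cells that reside in mouse epidermis. The cells came from back and belly skin of male and female mice, 2 weeks old, of the knockout strain B6.129-Ahrtm1Bra/J, in which Ahr, encoding the aryl hydrocarbon receptor (AHR), is disrupted in all cells. Ahr-het mice carried 1 knockout allele and served as littermate controls, and Ahr-ko mice carried the knockout allele on both chromosomes, so that neither group was wildtype. Each group had 3 arrays, and each array held RNA pooled from 2 to 3 mice, of which 10 ng was labelled. Among live epidermal cells, 10 to 15% were DETC with the Ahr-het genotype but 2 to 4% with the Ahr-ko genotype, and the sorts were 90 to 98% pure.

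AHR is a transcription factor that binds small molecules, pairs with ARNT and recognises DNA elements with the core GCGTG. Semaphorins signal through plexins, with neuropilins as co-receptors for most secreted members. Ephrins are anchored in the membrane and bind Eph receptor kinases on a neighbouring cell, and both partners can signal. In mouse skin the semaphorin CD100 (gene Sema4d) on DETC binds plexin B2 on keratinocytes during wound repair. In the mouse thymus plexin D1 directs the migration of maturing thymocytes.

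Of 14 markers of T cells and DETC, 13 were above background in both groups, with granzyme A (Gzma) below it on all arrays. Some other properties of the sorts moved with the genotype. Of 5 NK cell and innate lymphoid cell markers 3 were higher in Ahr-ko, and Il1rl1 was below background on all arrays. The remaining one, Klrb1c, went the other way, with levels of 11.34, 10.39 and 10.51 in Ahr-het and 10.51, 9.41 and 9.84 in Ahr-ko (adjusted p = 0.308, limma). The mean log2 level of the 5 was 7.35 to 7.61 in Ahr-het pools against 8.24 to 8.85 in Ahr-ko pools. Of 6 αβ T cell markers 3 were higher and 1 was lower, with mean levels of 8.59 to 8.66 against 9.07 to 9.13. Of 16 keratinocyte markers 13 were above background in Ahr-het and 12 in Ahr-ko, and their mean level was 8.52 to 8.77 against 8.37 to 8.67, with Dsg3 and Ivl below background on all arrays. The Y-linked genes Ddx3y, Eif2s3y, Kdm5d and Uty had mean levels of 9.45, 5.67 and 5.74 on the Ahr-het arrays of replicate numbers 1 to 3, and of 7.68, 9.20 and 9.51 on the Ahr-ko arrays. The pools of Ahr-het 2 and Ahr-het 3 thus had none of these genes above background, while the other 4 arrays had 2 to 4. The part of any of these differences in the results below was not tested, except by the covariates named there. Fewer cells of a type and less RNA per cell cannot be told apart in such pools. The probe set of Ahr had levels of 10.77, 10.62 and 10.72 in Ahr-het and 10.00, 10.40 and 10.39 in Ahr-ko (adjusted p = 0.177 from limma). Whether it lies in the disrupted part of the gene is not known, so it is no check of the labels.

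Background was judged per group, and a gene had to pass, on all 3 arrays, a limit below which 95% of 1391 receptor genes of smell and pheromone sensing (olfactory and vomeronasal) lay on that array. In log2 units the limit lay between 7.46 and 7.56 for Ahr-het arrays and between 7.55 and 7.63 for Ahr-ko arrays. Of the 58 guidance genes, 31 were above it in Ahr-het, 29 in Ahr-ko and 31 in at least 1 group (53.4%, against 57.8% of all genes tested). Another 24 were below it on all 6 arrays, and 3 passed it on some arrays only (Epha2, Epha5 and Ephb3). The families differed in how many members were above it. These were 3 of 3 ephrin-B, 3 of 3 Slit, 5 of 7 secreted semaphorins, 6 of 9 plexins, 7 of 12 membrane-bound semaphorins, 3 of 5 ephrin-A, 2 of 5 EphB, 2 of 9 EphA and 0 of 4 Robo genes. Nrp2, the 1 neuropilin among the 58, was below the limit on all arrays. With 99% of those receptor genes below the limit instead, 17 members were left in at least 1 group, and with 90% below it 37 were. Sema4d, Plxna3 and all 3 Slit genes were not among the 17.

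**Figure D1:**
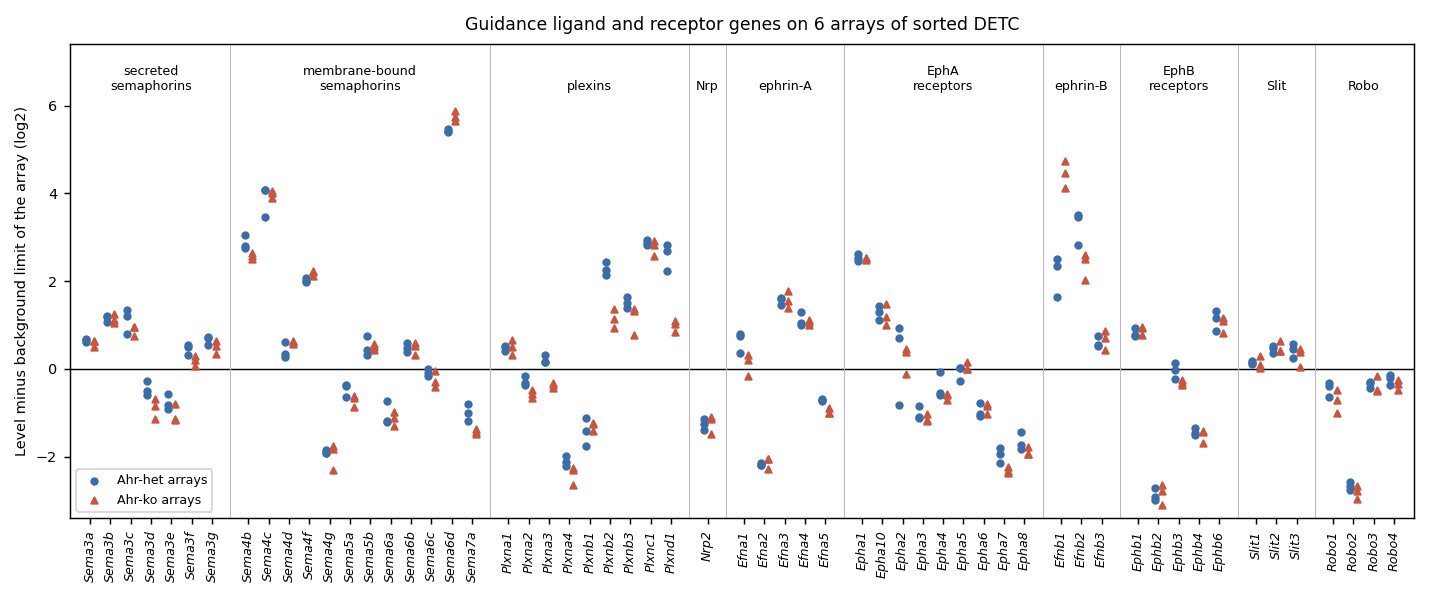
Level of each of the 58 guidance genes minus the background limit of the array (vertical axis, log2), with genes on the horizontal axis grouped by family (Nrp, neuropilins), circles for the 3 Ahr-het arrays and triangles for the 3 Ahr-ko arrays. Points above the line at 0 passed the limit; Efnb1 lies higher in Ahr-ko, and Plxnb2, Plxnd1 and Plxna3 lie lower.

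Between the genotypes, 4 of the 58 guidance genes differed at an adjusted p under 0.05 from limma (6.90%), beside 3.14% of all genes tested. Efnb1 was higher in Ahr-ko (1 of 58, beside 1.58% of all genes), and Plxnb2, Plxnd1 and Plxna3 were lower (3 of 58, beside 1.57%). All 4 were above background in at least 1 group. Among genes above background, the calls were 4 of 31 guidance genes (12.9%), beside 5.03% of all such genes. The calls thus fell on 1 of 8 ephrins and 3 of 9 plexins, and on 0 of 19 semaphorins, 14 Eph receptors, 3 Slits and 4 Robo receptors. The median log2 fold change of the 58 genes was -0.026, and that of all genes was 0.0038. With the replicate number as a block, 7 of 58 differed (12.1%, beside 7.58% of all genes), namely these 4 and Efnb2, Efna1 and Sema6d. With array weights 7 differed too (12.1%, beside 8.45% of all genes), with Sema7a, which was below background on all arrays, in place of Efna1. At an unadjusted p under 0.05 there were 12 (20.7%, beside 13.2% of all genes), and the groups did not overlap for 14 (24.1%, beside 18.7%).

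Ephrin-B1, encoded by Efnb1 (gene ID 13641, X chromosome), is a transmembrane ligand of EphB receptors that also signals into the cell that carries it. Its log2 levels were 9.10, 10.06 and 9.91 on the Ahr-het arrays and 11.67, 12.36 and 12.05 on the Ahr-ko arrays. Every Ahr-ko array was thus above every Ahr-het array, and within each group the array of replicate number 1 was the lowest. The means were 9.69 +/- 0.51 and 12.03 +/- 0.35 (SD, n = 3), so that Ahr-ko was 2.34 +/- 0.27 log2 units higher (difference and its standard error, limma, adjusted p = 0.00213), or 5.05-fold. The gene lies on the X chromosome, and the pools differed in Y-linked RNA. With the Y-linked level as a covariate the log2 fold change was 2.61 (adjusted p = 0.00725, limma), and with the keratinocyte marker level 2.74 (adjusted p = 2.99e-06). That marker level is a mean that includes Dsp, itself lower in Ahr-ko (log2 fold change -1.22, adjusted p = 0.00241, limma). It was lowest on the replicate 1 array of each group (8.52 and 8.37). Fits with it, here and below, thus cannot tell keratinocyte RNA apart from the change of Dsp or a shift of those arrays.

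Ephrin-B2, encoded by Efnb2 (gene ID 13642, chromosome 8), binds the same receptor class. It had levels of 10.29, 11.07 and 11.03 in Ahr-het and 9.58, 10.23 and 10.09 in Ahr-ko. The groups did not overlap, and the replicate 1 array was again the lowest in each. The difference was -0.83 +/- 0.24 log2 units (limma, adjusted p = 0.153), which missed the threshold, and it passed with the replicate block (adjusted p = 0.00139). It also passed without Ahr-het 1 (-1.08, adjusted p = 0.0253) and with the keratinocyte covariate, which lowered it to -0.46 (adjusted p = 0.0298). With the Y-linked covariate it was -0.62 (adjusted p = 0.542). Ephrin-B3 (Efnb3) was above background on all arrays, with a log2 fold change of 0.13 (95% interval -0.23 to 0.49).

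Among the GPI-anchored ephrin-A ligands, Efna1 (gene ID 13636, chromosome 3), a ligand of EphA2, had levels of 7.82, 8.29 and 8.35 in Ahr-het and 7.38, 7.82 and 7.90 in Ahr-ko. The groups overlapped, and 2 of 3 Ahr-ko arrays were above background. The difference was -0.46 +/- 0.19 log2 units, with an adjusted p of 0.348 by limma and of 0.0230 once the replicate block was added. It was -0.19 with the keratinocyte covariate (adjusted p = 0.359, limma) and -0.34 with the Y-linked covariate (adjusted p = 0.737). The neighbouring genes Efna3 and Efna4 were above background on all arrays. Efna3 had levels of 9.08, 9.14 and 9.01 against 8.94, 9.39 and 9.13, and Efna4 of 8.51, 8.83 and 8.55 against 8.65, 8.71 and 8.59. Their fold changes were 0.07 (95% interval -0.23 to 0.38) and 0.02 (-0.25 to 0.29) on the log2 scale. Efna2 and Efna5 were below background on all arrays.

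**Figure D2:**
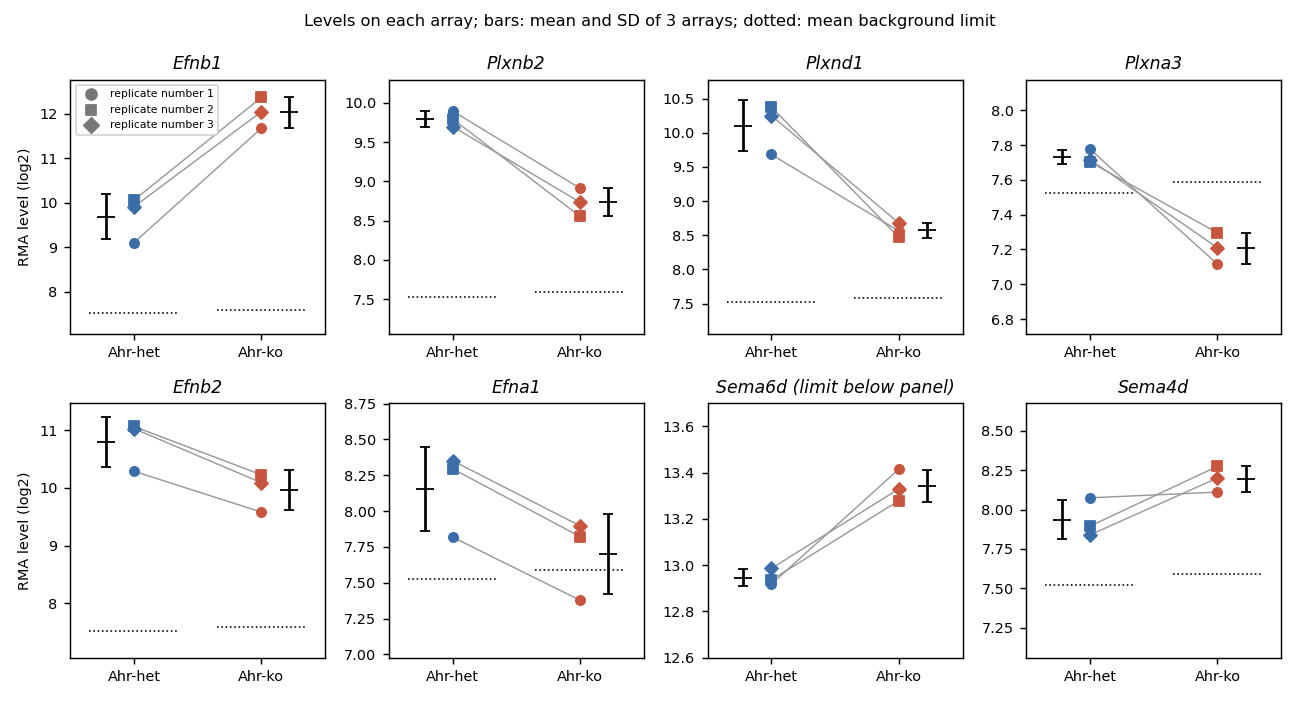
RMA level (vertical axis, log2) of 8 guidance genes on each Ahr-het and Ahr-ko array, with lines joining arrays of equal replicate number, bars for the mean and SD of 3 arrays, and dotted lines for the mean background limit (below the panel for Sema6d). The groups are apart in every panel but that of Efna1, and the replicate 1 arrays are the lowest for Efnb1, Efnb2 and Efna1.

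Plexin D1, encoded by Plxnd1 (gene ID 67784, chromosome 6), is a receptor of semaphorin 3E. Its levels were 9.68, 10.38 and 10.25 in Ahr-het and 8.56, 8.47 and 8.68 in Ahr-ko. All Ahr-ko arrays were below all Ahr-het arrays by at least 1 log2 unit and remained above background. The difference was -1.53 +/- 0.18 log2 units (limma, adjusted p = 0.00248), or 2.89-fold lower. It was -1.28 with the Y-linked covariate (adjusted p = 0.0112) and -1.37 with the keratinocyte covariate (adjusted p = 0.00109). Sema3e, the gene of semaphorin 3E, was below background on all arrays (6.89, 6.72 and 6.65 against 6.75, 6.48 and 6.42).

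Plexin B2, encoded by Plxnb2 (gene ID 140570, chromosome 15), is a receptor of class 4 semaphorins. Its levels were 9.90, 9.79 and 9.70 in Ahr-het and 8.91, 8.55 and 8.73 in Ahr-ko, so that the groups were well apart. The difference was -1.06 +/- 0.12 log2 units (limma, adjusted p = 0.00236), or 2.09-fold lower. As keratinocytes carry this receptor, their markers were set beside it. Of the 16, 10 had a log2 fold change below 0 and 6 above, from -1.22 (Dsp, a desmosome gene, the 1 marker past the test) to 0.23, with a median of -0.041. Krt10, a keratin of differentiating keratinocytes, had -0.57 and Trp63, a transcription factor of basal keratinocytes, had -0.55. The part of these cells in the level of Plxnb2 was not tested apart from the covariate. With the mean of the markers as a covariate the log2 fold change of Plxnb2 was -1.19 (adjusted p = 1.80e-04), and with the Y-linked covariate -1.08 (adjusted p = 0.0222).

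Plexin A3, encoded by Plxna3 (gene ID 18846, X chromosome), is a receptor for secreted semaphorins. Its levels were 7.78, 7.70 and 7.72 in Ahr-het, just above the limit, and 7.12, 7.30 and 7.21 in Ahr-ko, below the limit on all arrays. The difference was -0.52 +/- 0.10 log2 units (limma, adjusted p = 0.0312). Since its Ahr-ko level has only a bound, the gene was at least 1.11-fold lower when its Ahr-het mean is set against that limit. With 99% of the receptor genes below the limit it was below background on all arrays of both groups, which gives no bound. The call of Plxna3 is the least firm of the 4. Each of the 6 fits without 1 array ended it (adjusted p = 0.0594 to 0.136, limma), and the Y-linked covariate did too (-0.58, adjusted p = 0.0987). The other plexins above background, Plxna1, Plxnb3 and Plxnc1, did not pass. Plxnc1, the receptor of semaphorin 7A, had levels of 10.27, 10.42 and 10.51 in Ahr-het and 10.36, 10.20 and 10.51 in Ahr-ko, with a log2 fold change of -0.04 (95% interval -0.32 to 0.24). Plxnb3 lies on the X chromosome as well and had a log2 fold change of -0.29 (95% interval -0.67 to 0.09), with overlapping groups.

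Because the mice differ in AHR, the promoters of the guidance genes were searched for its core GCGTG on either strand (CACGC on the other), with no other motif searched. RefSeq (GRCm38.p6) gave windows from 250 bases before to 50 after a start for 51 of the 58 guidance genes. Of these 51 genes 25 held the core in at least 1 window (49.0%, beside 43.2% of the tested genes with a window), and 42.2% of their 64 windows held it, beside 40.01% of the 19547 windows of tested genes. The windows of the 4 called genes were not alike. The window of Plxnd1 held it 5 times on the strand of the gene, starting 86, 73, 61, 41 and 2 bases before the start. The last of these runs past the start. The window of Efnb1 held it once, starting 48 bases before the start, and the window of Plxna3 once, from base 34 after the start. Neither window of Plxnb2 held it. Of the genes past the threshold only with the replicate block, Efna1 held it once, as CACGC from base 22 after 1 start. Efnb2 and Sema6d did not hold it. A match is a description of these letters and not a bound site. The 120 bases before each start of the 4 called genes are shown 5′ to 3′, to set these windows side by side, with GCGTG in capitals. The match of Plxna3 and the last one of Plxnd1 reach past this stretch and are not marked.
Efnb1 (chrX:99135941-99136060, plus strand): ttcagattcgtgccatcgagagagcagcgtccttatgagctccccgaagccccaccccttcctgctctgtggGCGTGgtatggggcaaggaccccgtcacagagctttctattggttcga
Plxnd1 (chr6:115995006-115995125, minus strand): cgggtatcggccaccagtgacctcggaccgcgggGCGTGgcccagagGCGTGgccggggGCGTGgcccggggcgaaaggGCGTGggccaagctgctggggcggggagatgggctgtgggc
Plxnb2, upstream start (chr15:89180789-89180908, minus strand): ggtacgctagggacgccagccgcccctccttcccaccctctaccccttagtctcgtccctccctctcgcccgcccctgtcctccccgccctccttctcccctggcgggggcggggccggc
Plxnb2, downstream start (chr15:89173952-89174071, minus strand): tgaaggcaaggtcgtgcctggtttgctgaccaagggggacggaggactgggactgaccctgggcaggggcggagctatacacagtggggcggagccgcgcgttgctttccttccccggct
Plxna3 (chrX:74328946-74329065, plus strand): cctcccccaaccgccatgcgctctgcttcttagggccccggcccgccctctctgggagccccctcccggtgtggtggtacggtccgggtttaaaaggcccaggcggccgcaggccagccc

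Semaphorins were the largest family measured, and none passed the test. Semaphorin 6D, encoded by Sema6d (gene ID 214968, chromosome 2), is a transmembrane ligand of plexin A1. Its levels were 12.92, 12.94 and 12.99 in Ahr-het and 13.42, 13.28 and 13.33 in Ahr-ko. The groups did not overlap and were 0.39 +/- 0.098 log2 units apart, with an adjusted p of 0.0858 by limma and of 0.0475 once the replicate block was added. It was 0.43 with the Y-linked covariate (adjusted p = 0.225, limma). CD100, encoded by Sema4d (gene ID 20354, chromosome 13), had levels of 8.07, 7.89 and 7.84 against 8.11, 8.27 and 8.20, with a log2 fold change of 0.26 (95% interval 0.0064 to 0.51; adjusted p = 0.365 from limma). Its margin over the limit was 0.41 +/- 0.18 in Ahr-het and 0.61 +/- 0.041 in Ahr-ko (SD, n = 3). Semaphorin 4F (Sema4f) had levels of 9.46, 9.61 and 9.54 against 9.78, 9.84 and 9.71, a log2 fold change of 0.24 (adjusted p = 0.364). Semaphorin 4C (Sema4c), a ligand of plexin B2, had levels of 10.93, 11.63 and 11.64 against 11.45, 11.68 and 11.60, in which Ahr-het 1 was apart from the other arrays of its group. Its fold change was 0.17 on the log2 scale (95% interval -0.27 to 0.62). The log2 fold change of Sema4b was -0.24 (95% interval -0.49 to 0.018), with groups that did not overlap.

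The secreted class 3 semaphorins, which bind neuropilins or plexins, did not pass the test either. Sema3b, with levels of 8.52, 8.75 and 8.74 against 8.65, 8.89 and 8.63, had a log2 fold change of 0.05 (95% interval -0.23 to 0.33). Sema3c had levels of 8.26, 8.76 and 8.90 against 8.30, 8.59 and 8.54, and a fold change of -0.16 (-0.57 to 0.24) on the same scale. Sema3a, Sema3f and Sema3g were also above background and ranged from -0.19 to -0.0013. Another 3 genes had an unadjusted p under 0.05 but were below background on all arrays, so no fold change is given. Sema3d had levels of 7.17, 6.94 and 7.06 against 6.70, 6.48 and 6.90 (limma, adjusted p = 0.281). Sema7a, which encodes a GPI-anchored semaphorin, had 6.45, 6.74 and 6.37 against 6.17, 6.19 and 6.10 (adjusted p = 0.229, limma). The Eph receptor gene Epha7 had 5.66, 5.60 and 5.41 against 5.30, 5.26 and 5.25 (adjusted p = 0.288, limma). In all 3 the groups did not overlap.

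Of the 14 Eph receptors, 4 were above background, and none of the 14 passed the test. Epha1 had levels of 10.08, 10.01 and 10.08 in Ahr-het and 10.02, 10.15 and 10.11 in Ahr-ko, with a log2 fold change of 0.04 (95% interval -0.19 to 0.26). Epha10, whose product lacks kinase activity, had 8.58, 8.97 and 8.86 against 8.54, 9.11 and 8.77, a log2 fold change of 0.0028 (-0.38 to 0.39). Ephb1, a receptor of ephrin-B ligands, had 8.22, 8.47 and 8.31 against 8.49, 8.57 and 8.36, and the log2 fold change was 0.14 (-0.12 to 0.40). Ephb6, an inactive kinase found in T cells, had 8.77, 8.71 and 8.44 against 8.63, 8.44 and 8.75, and the log2 fold change was -0.03 (-0.33 to 0.28). All 4 intervals included 0. Epha2, the receptor of ephrin-A1, was above background on 2 of 3 arrays in each group, and both replicate 1 arrays were the low ones (6.64 against 8.48 and 8.26 in Ahr-het, 7.42 against 8.02 and 8.03 in Ahr-ko).

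The secreted Slit ligands were above background on all arrays by small margins, and the 4 genes of their Robo receptors were below it on all arrays. Slit2 had levels of 7.81, 8.06 and 8.03 against 7.95, 8.27 and 7.99, and Slit3 of 8.03, 8.00 and 7.82 against 7.59, 8.07 and 7.97. The log2 fold changes were 0.10 (95% interval -0.19 to 0.39) for Slit2, -0.07 (-0.41 to 0.26) for Slit3 and 0.06 (-0.19 to 0.32) for Slit1. Of the 27 guidance genes above background that did not pass the test, 26 had a 95% interval that lay within a 2-fold change either way. The exception was Efnb2, whose interval reached down to -1.39.

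**Figure D3:**
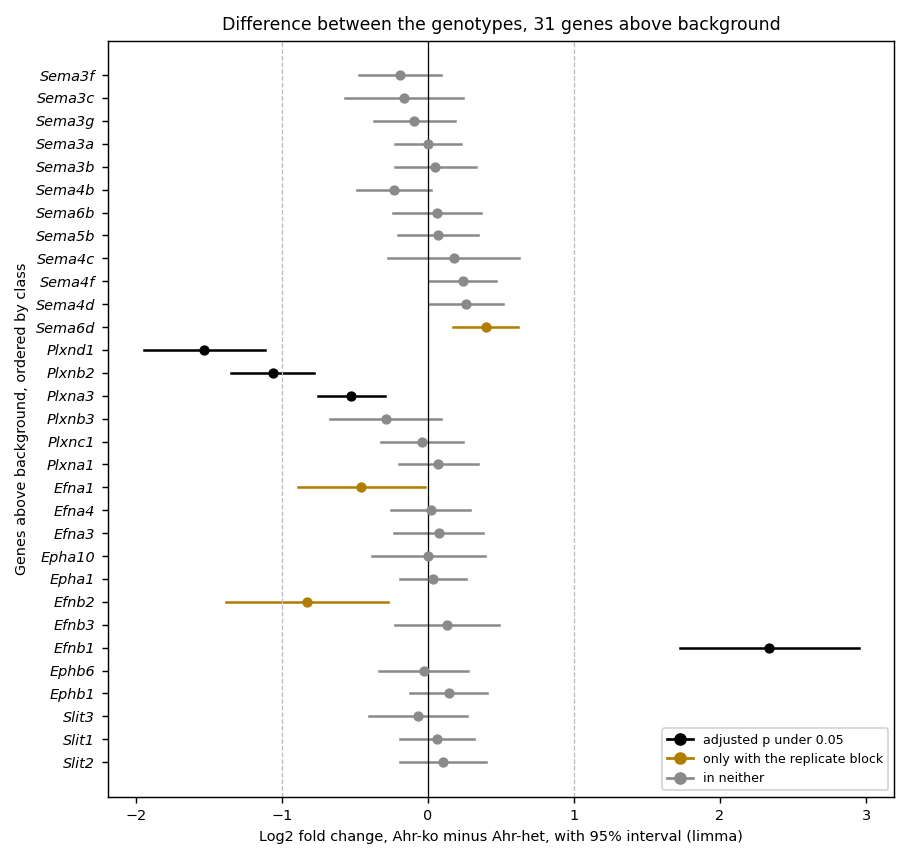
Difference of Ahr-ko from Ahr-het (horizontal axis, log2 fold change) with its 95% interval from limma for the 31 guidance genes above background, ordered by family. Efnb1 lies at 2.34 and Plxnd1 at -1.53, while most other intervals include 0. Black marks genes past the test, brown those past it only with the replicate block and grey the others, and dashed lines mark a 2-fold change.

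Genes that act downstream of these receptors or bind their ligands were followed in a separate list of 59, chosen with earlier results of these data known. Of these 7 passed the test (11.9%, beside 3.14% of all genes), 3 higher and 4 lower in Ahr-ko. In the list 76.3% were above background in at least 1 group, against 57.8% of all genes. Of all genes above background 5.03% were called. Of the 26 semaphorin and plexin genes 1 was higher and 1 lower. Crmp1, a cytosolic mediator of semaphorin 3A signals, had levels of 7.33, 7.21 and 7.32 in Ahr-het, below background, and 9.95, 9.56 and 9.79 in Ahr-ko. Set against the background limit on the Ahr-het arrays, it was at least 4.74-fold higher (adjusted p = 2.51e-05 from limma). Cd72, a receptor of CD100 known from B cells, fell from 10.05, 10.33 and 10.32 to 9.38, 9.30 and 9.44 (log2 fold change -0.86, adjusted p = 0.00513).

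Of the 20 Eph and ephrin genes 1 was higher and 2 were lower. Chn2, a GTPase-activating protein for Rac, had 10.05, 8.87 and 9.40 in Ahr-het and 12.03, 11.24 and 11.47 in Ahr-ko (log2 fold change 2.14, adjusted p = 0.00648). Src, a tyrosine kinase of this signalling, had 9.28, 9.19 and 9.32 against 8.41, 8.49 and 8.36 (log2 fold change -0.84, adjusted p = 0.00254). Itsn1, an exchange factor for Cdc42, had a log2 fold change of -0.68 (adjusted p = 0.0151), and 4 of the 6 fits without 1 array ended its call. Of the 13 Slit and Robo genes, Arhgap39, a GTPase-activating protein that in flies binds Robo, was lower, with 12.03, 11.77 and 11.84 against 10.92, 10.89 and 10.83 (log2 fold change -0.998, adjusted p = 0.00163). Usp33, a deubiquitinase that binds Robo1, passed the test with higher values in Ahr-ko (adjusted p = 0.0269), but it was below background on all Ahr-het arrays and above it on 2 of 3 Ahr-ko arrays, so no fold change is given, and 4 of the 6 fits without 1 array ended its call. With the replicate block 10 of the 59 passed (16.9%, beside 7.58% of all genes), the 3 further ones all higher in Ahr-ko. They were Srgap3, a GTPase-activating protein bound by Robo (log2 fold change 0.60, adjusted p = 0.0123 with the block), the kinase Pak1 (0.69, adjusted p = 0.0125) and Rasa1, a GTPase-activating protein for Ras (0.43, adjusted p = 0.0307). Without the block their adjusted p was 0.271, 0.826 and 0.260 from limma. Pak1 had levels of 7.89, 10.51 and 10.31 in Ahr-het and 8.57, 11.49 and 10.71 in Ahr-ko. Its groups overlapped, the replicate 1 array was the lowest in each, and its interval without the block was -1.27 to 2.65. With the Y-linked covariate 4 of these first 7 calls were left, those of Crmp1, Cd72, Src and Arhgap39.

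**Figure D4:**
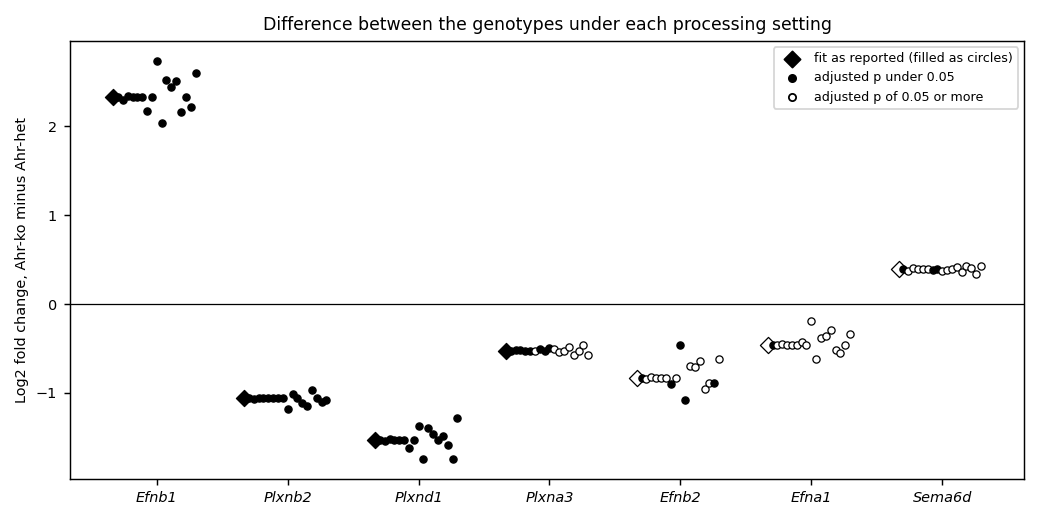
Difference of Ahr-ko from Ahr-het (vertical axis, log2 fold change) of 7 guidance genes under each processing setting, with diamonds for the fit as reported, circles for the alternatives and filled symbols for an adjusted p under 0.05. Efnb1, Plxnb2 and Plxnd1 are filled throughout; Plxna3, Efnb2, Efna1 and Sema6d are filled under some settings only.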

How the data were processed

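Gene expression of sorted DETC was measured on 6 single-colour arrays, 3 per genotype, with genotype and replicate number taken from the sample labels. The authors deposited log2 expression values made by RMA over all arrays, and limma 3.38.3 is named in the submitters' processing notes. RMA equalizes the distributions of the arrays, so that a shift of most genes would not be seen. No source used here gives the version of RMA or the build behind the probe sets. Gene IDs and symbols, which carry other values than measurements, came from the deposited annotated gene table. Its fold changes, p-values and scores of the authors' own comparison were not used.

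Of 29129 probe sets, 20435 had a gene ID, and the brightest probe set stood for each of 20300 genes. The test was limma 3.58.1 under R 4.3.3 (lmFit, then eBayes), with Benjamini-Hochberg adjustment over all genes, a threshold of 0.05 and no covariate. The fit was tested on simulated data with independent noise in each gene and array. These data held no difference in pool composition and, for the test as reported, no shared shift of replicate numbers. The simulation is thus no check on those features. The members and lists were chosen with earlier results of these data known. Values on every array are given for members past the threshold, also with the replicate block, at an unadjusted p under 0.05, or among the 2 brightest above background in their family. All called genes of the downstream list are named.

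Equal replicate numbers deviated together over all genes (correlations of 0.572, 0.369 and 0.207). They were used as a block in an alternative fit only, and the test as reported took the arrays as unpaired. Numbers 2 and 3 also correlated when crossed (0.236 and 0.336), above the 0.207 of number 3, so the correlations do not show which of these arrays pair. What the numbers stand for is not in the labels. P-values measure the spread between pools of mice. Alternatives were the replicate block, a second quantile normalization, centring on the median, a background filter and limit, other probe set rules, array weights, another variance prior, the keratinocyte covariate and leaving out arrays. The Y-linked covariate and the fit without both replicate 1 arrays were chosen after seeing the data.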

Additional observations from a re-analysis of the deposited data

How the results depend on the processing

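Efnb1, Plxnb2 and Plxnd1 kept their direction and their call under each of the 17 alternatives, with log2 fold changes of 2.04 to 2.74, -1.19 to -0.97 and -1.74 to -1.28. The replicate block, the background filter, the other probe set rules and the other variance prior cannot change the fold change of a member. They bear only on its call. Plxna3 kept its direction (-0.58 to -0.46) and lost its call under 9 of 17. The count of guidance genes past the threshold was 4, and it was 7 with the replicate block and 7 with array weights (Sema7a in place of Efna1), 3 to 4 without 1 array, and 3 to 5 otherwise. The replicate block changed the calls of Efnb2, Efna1 and Sema6d and raised the count of the downstream list to 10 from 7 (16.9%, where the share of all genes rose to 7.58% from 3.14%). It cannot turn a direction, as each group holds every replicate number. The downstream list had 5 to 7 calls without 1 array and 4 with the Y-linked covariate.

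Without 1 array, 31 to 33 members were above background in Ahr-het, 29 to 31 in Ahr-ko and 31 to 33 in at least 1 group. The 99th percentile as limit gave 16, 16 and 17, and the 90th gave 36, 36 and 37. With 250 bases before the start only, 23 members held GCGTG in place of 25. The sign of some differences near 0 turned, none of them past the threshold under any setting, and the cause was not tested. With array weights these were Efna4 (-0.079), Epha10 (-0.081), Ephb6 (0.058), Plxnc1 (0.0058), Sema3b (-0.043) and Slit3 (0.0069). With the keratinocyte covariate they were Sema3c (0.063) and Slit3 (0.024), and with the Y-linked covariate Plxnc1 (0.028) and Sema3c (0.019). Without both replicate 1 arrays they were Efna4 (-0.045), Ephb6 (0.023) and Slit3 (0.11). Without 1 array the log2 fold changes ranged from -0.047 to 0.18 for Efna3, -0.044 to 0.12 for Efna4, -0.15 to 0.13 for Epha10, -0.13 to 0.053 for Ephb6, -0.12 to 0.038 for Plxnc1, -0.033 to 0.098 for Sema3b, -0.060 to 0.29 for Sema4c and -0.17 to 0.073 for Slit3. With 3 arrays a group and no counts, the number of arrays limits what differences can be seen.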
